A study of Mus musculus with 4 samples.

Results

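The genes described here make the mouse MHC class I antigen presentation machinery. They were taken by symbol: the classical heavy chains H2-K1 and H2-D1, the light chain B2m, the peptide transporter subunits Tap1 and Tap2, the loading factor Tapbp, the transactivator Nlrc5, and the immunoproteasome subunits Psmb8, Psmb9 and Psmb10. All 10 were found among the 52550 genes of the table, and all 10 reached 1 FPKM in every library. FPKM scales fragments to transcript length and library size, so levels of different genes are compared per length.

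Class I molecules carry peptides of cytosolic proteins to the cell surface, where CD8 T cells read them. The proteasome cuts the proteins, and the immunoproteasome subunits replace the catalytic subunits of the constitutive particle when interferon or inflammation induces them. TAP moves the peptides into the endoplasmic reticulum, tapasin (Tapbp) holds empty class I molecules beside TAP, and NLRC5 drives the promoters of class I genes much as CIITA drives those of class II. In macrophages these genes are classical interferon targets, while IL-4 signals through STAT6 toward the alternative (M2) state.

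RNA-seq was made from bone marrow-derived macrophages in 4 groups of 1 library each: OGT KO after 24 h of IL-4, OGT KO at 0 h, WT after 24 h of IL-4 and WT at 0 h. OGT is the enzyme that adds the sugar O-GlcNAc to proteins of the nucleus and cytosol. In all 4 groups the marrow cells had grown for 7 days in M-CSF at 20 ng/mL, and the protocol gives IL-4 at 20 ng/mL. The labels tag the 0 h samples with IL-4 too, and they were taken as cells before IL-4 because of their time. Strain, age and sex of the mice, the way Ogt was deleted and any pooling of animals are not stated in the labels. The labels hold no 24 h culture that lacked IL-4, so an effect of IL-4 and an effect of 24 more hours in culture cannot be told apart, and "IL-4 response" below means 24 h against 0 h. With 1 library per group no difference could be set against the spread between cultures. No test was possible, and every value is a description of these libraries.

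Ogt stood at 14.5 FPKM in OGT KO at 24 h, 14.2 in OGT KO at 0 h, 29.8 in WT at 24 h and 27.4 in WT at 0 h. The log2 difference between OGT KO and WT was −0.99 at 24 h and −0.90 at 0 h, so both libraries labelled OGT KO kept a sizeable Ogt level, and a transcript that lacks only the deleted part would still be counted. Oga, the enzyme that removes the same sugar, was also lower in OGT KO, at 10.6 FPKM at 24 h and 14.9 at 0 h, against 23.4 and 31.4 in WT. Retnla, an IL-4 target of macrophages, was at 14904 FPKM in OGT KO and 12961 in WT at 24 h, against 2.23 and 2.17 at 0 h. Of the macrophage markers 8 of 8 were above 1 FPKM in every library, with Cd68 between 965 and 1009 FPKM. The summed macrophage markers were lower at 24 h, at 6410 FPKM in OGT KO and 6400 in WT, than at 0 h, at 15500 in OGT KO and 18500 in WT. Summed neutrophil markers went the same way, with 730 and 1090 FPKM at 24 h in OGT KO and WT, against 2180 and 3370 at 0 h, and Ly6g stayed under 1 FPKM throughout. Among the markers of other cells, 4 of 6 for B cells, 6 of 8 for T and NK cells, 6 of 9 for dendritic cells and 5 of 5 for erythroid cells were under 1 FPKM in every library. The summed monocyte markers, which include the IL-4 target Chil3, were at 1190, 224, 1770 and 393 FPKM in OGT KO at 24 h, OGT KO at 0 h, WT at 24 h and WT at 0 h, and the dendritic cell markers at 381, 20.5, 384 and 41.2. Most of the dendritic cell sum at 24 h was Itgax, at 353, 15.1, 355 and 35.1 FPKM in the same order. Batf3 and Zbtb46 were also higher at 24 h in both genotypes, and Flt3, Xcr1, Clec9a, Cd209a, Siglech and Ccr7 were lower. The sums for B cells were at 17.2, 161, 13.9 and 132 FPKM and those for T and NK cells at 2.64, 20.1, 3.89 and 27.0. Ighm made up most of the B cell sums and Cd4 most of the T and NK cell sums. Stromal, megakaryocyte, mast cell and erythroid sums stayed at or below 101 FPKM. In bulk RNA, fewer cells of a type and less RNA per cell cannot be told apart, and the part of these shifts in the results below was not tested. From the values, 1 FPKM was estimated to stand for 20.8 to 22.7 fragments per kilobase, so that Psmb9, the member with the fewest fragments, rested on about 137 to 260 of them per library. Its counting error alone was then 6.2% to 8.53%, and that of B2m 0.38% to 0.426%.

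The promoters are shown first because interferon and NLRC5 act on class I genes through short elements close to the start site. RefSeq windows (GRCm38.p6) from 250 bases before to 50 bases after the start were matched for 8 of the 10 members, and Tap2 and Nlrc5 are not shown. These 6 windows were chosen for the contrast in the results, where H2-K1, H2-D1, B2m and Tap1 were lower and Psmb8 and Psmb10 higher at 24 h. They are chr17:34000298-34000597, − strand for H2-K1, chr17:35262844-35263143, + strand for H2-D1, chr2:122147437-122147736, + strand for B2m, chr17:34187306-34187605, + strand for Tap1, chr17:34197945-34198244, + strand for Psmb8 and chr8:105938343-105938642, − strand for Psmb10. Each reads 5′ to 3′ on the gene's strand, and capitals mark every motif match on either strand.
H2-K1: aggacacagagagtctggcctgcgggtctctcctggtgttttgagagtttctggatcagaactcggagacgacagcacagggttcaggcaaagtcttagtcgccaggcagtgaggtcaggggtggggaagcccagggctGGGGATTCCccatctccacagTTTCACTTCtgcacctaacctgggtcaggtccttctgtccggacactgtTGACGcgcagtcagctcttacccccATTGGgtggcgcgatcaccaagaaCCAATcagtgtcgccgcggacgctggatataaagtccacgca
H2-D1: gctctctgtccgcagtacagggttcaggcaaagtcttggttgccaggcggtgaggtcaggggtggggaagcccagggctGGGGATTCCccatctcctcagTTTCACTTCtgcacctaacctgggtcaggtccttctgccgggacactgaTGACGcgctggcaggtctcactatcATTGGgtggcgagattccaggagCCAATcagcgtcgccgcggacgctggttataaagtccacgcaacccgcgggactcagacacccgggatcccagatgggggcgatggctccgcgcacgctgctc
B2m: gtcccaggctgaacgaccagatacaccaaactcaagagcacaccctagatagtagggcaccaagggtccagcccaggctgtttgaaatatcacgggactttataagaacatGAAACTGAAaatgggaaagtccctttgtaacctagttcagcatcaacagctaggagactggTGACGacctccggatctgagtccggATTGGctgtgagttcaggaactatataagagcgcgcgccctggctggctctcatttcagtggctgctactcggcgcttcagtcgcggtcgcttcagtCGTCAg
Tap1: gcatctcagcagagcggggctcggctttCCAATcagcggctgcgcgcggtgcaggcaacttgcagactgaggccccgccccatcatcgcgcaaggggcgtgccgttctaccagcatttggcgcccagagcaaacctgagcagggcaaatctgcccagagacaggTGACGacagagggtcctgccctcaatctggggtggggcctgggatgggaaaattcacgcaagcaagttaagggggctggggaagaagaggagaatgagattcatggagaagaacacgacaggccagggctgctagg
Psmb8: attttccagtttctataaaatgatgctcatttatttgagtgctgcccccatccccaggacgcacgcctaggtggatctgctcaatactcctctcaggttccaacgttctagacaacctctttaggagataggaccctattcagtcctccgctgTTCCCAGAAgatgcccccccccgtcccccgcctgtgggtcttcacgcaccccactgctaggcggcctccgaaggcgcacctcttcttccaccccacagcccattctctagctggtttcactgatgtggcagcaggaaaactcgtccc
Psmb10: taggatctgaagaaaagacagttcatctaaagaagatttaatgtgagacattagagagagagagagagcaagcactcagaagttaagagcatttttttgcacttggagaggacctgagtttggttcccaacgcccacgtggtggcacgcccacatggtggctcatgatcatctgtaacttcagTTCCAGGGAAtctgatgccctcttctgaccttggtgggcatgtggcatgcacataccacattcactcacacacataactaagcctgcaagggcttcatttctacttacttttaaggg

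The motifs searched on both strands were the ISRE core GAAANNGAA of interferon-stimulated genes, its mirrored form GAANNGAAA, the GAS element TTCNNNGAA of interferon-γ-induced genes, the wider STAT6 type TTCNNNNGAA, the X2 or CRE core TGACG, the Y box CCAAT and a kB type GGGNNTTCC. Of 32851 windows in the table, 8.56% held the ISRE core, 7.52% its mirrored form, 8.3% a GAS, 6.95% the STAT6 type, 20.8% an X2 core, 37.4% a Y box and 5.82% the kB type. The mirrored form was added after the H2-K1 window had been read. A match is a stretch of letters and no evidence of binding, and matches of different motifs were allowed to overlap, which none did in the 6 windows shown.

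H2-K1 and H2-D1 carried the same set in the same order: a kB type match, a mirrored ISRE, an X2 core and a pair of Y boxes on opposite strands. Counted from the start, the kB, ISRE and X2 matches began at −111, −90 and −41 in H2-K1 and at −171, −150 and −101 in H2-D1. The RefSeq start of H2-D1 lies 364 bases from the GENCODE start, so such distances depend on the annotation. Over 239 aligned bases the 2 windows were 88.3% identical. B2m held the ISRE core as GAAACTGAA, at −139, with an X2 core and a Y box between it and the start and a further X2 match after the start. Tap1 and Psmb9 are divergent neighbours whose windows have 275 of 300 bases in common, and that shared stretch held 1 X2 core and 1 Y box. The Psmb8 window held a GAS match, TTCCCAGAA, and the Psmb10 window the STAT6 type match TTCCAGGGAA, and neither held a match to the X2 core, the Y box or the ISRE. The RefSeq start of Psmb8 lies 474 bases from the GENCODE start, so what its window lacks depends on the annotation too. Tapbp, not printed, held only 2 Y boxes, and its RefSeq start lies 3579 bases from the GENCODE start. Tap1 and Tapbp, both lower at 24 h, thus also held no ISRE match in either form.

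**Figure D1:**
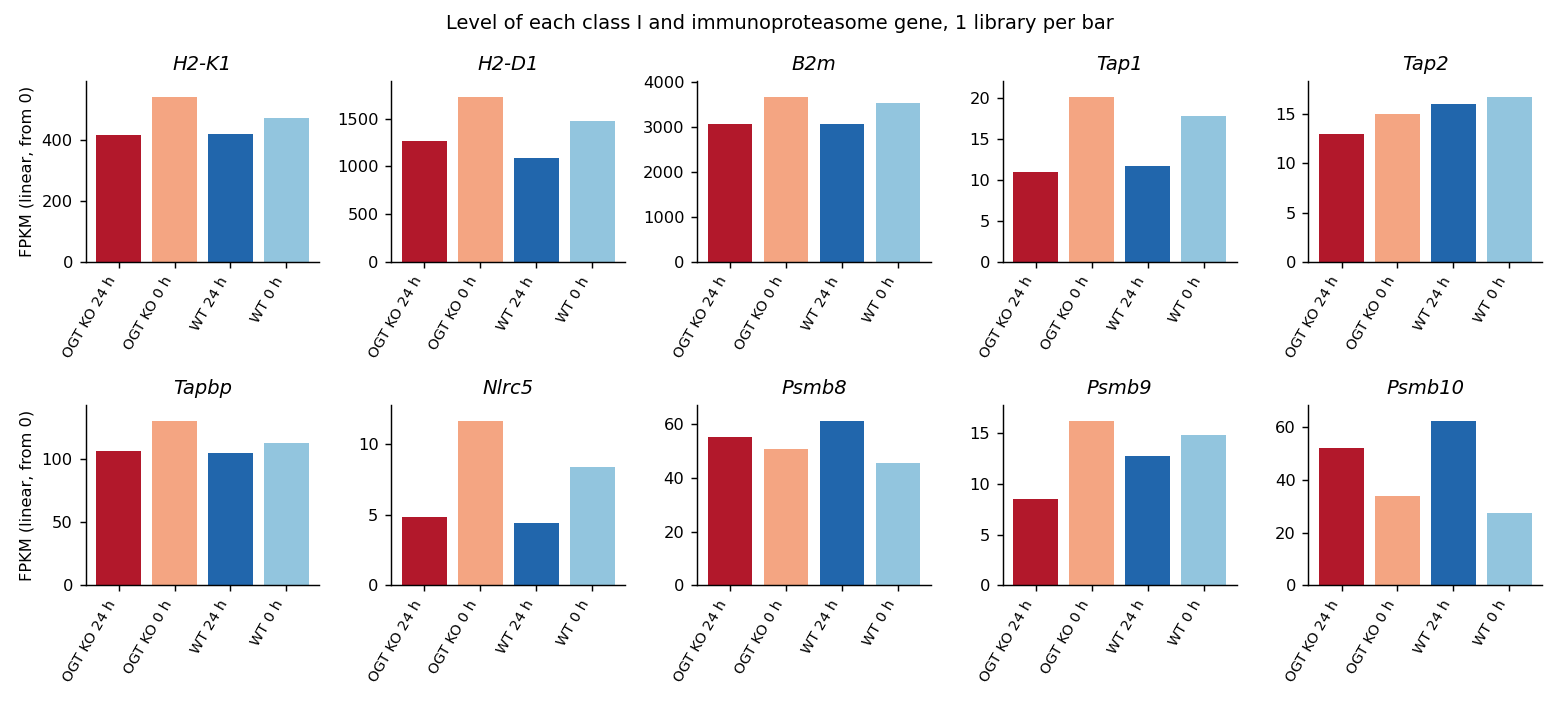
Level in FPKM (linear axis from 0, a scale of its own for each gene) of the 10 members in OGT KO at 24 h, OGT KO at 0 h, WT at 24 h and WT at 0 h; each bar is 1 library, so there are no error bars. The 0 h bars are the taller ones within each genotype for 8 of the 10 genes, and the 24 h bars for Psmb8 and Psmb10.

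After 24 h of IL-4 most of the machinery was modestly lower in both genotypes, except for 2 of the 3 immunoproteasome subunits, which were higher. Differences are log2 ratios of FPKM + 1, and a gene counts as past the threshold at 2-fold, a log2 difference of 1. In OGT KO, 8 of 10 members were below 0 and 2 above, with a median of −0.33 against 0.03 for all 11577 genes kept, of which 52.7% were above 0. Only Nlrc5 was past 2-fold lower, as were 5.99% of all kept genes, and no member was past 2-fold higher, as were 5.16%. In WT, 8 of 10 were again below 0, with a median of −0.18 against 0.02 for all 11689 kept genes, of which 52.0% were above 0. There Psmb10 alone was past 2-fold higher (4.77% of all genes) and no member past 2-fold lower (6.26% of all genes). With 1 of 10 members past 2-fold in each genotype, the count is near that background.

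**Figure D2:**
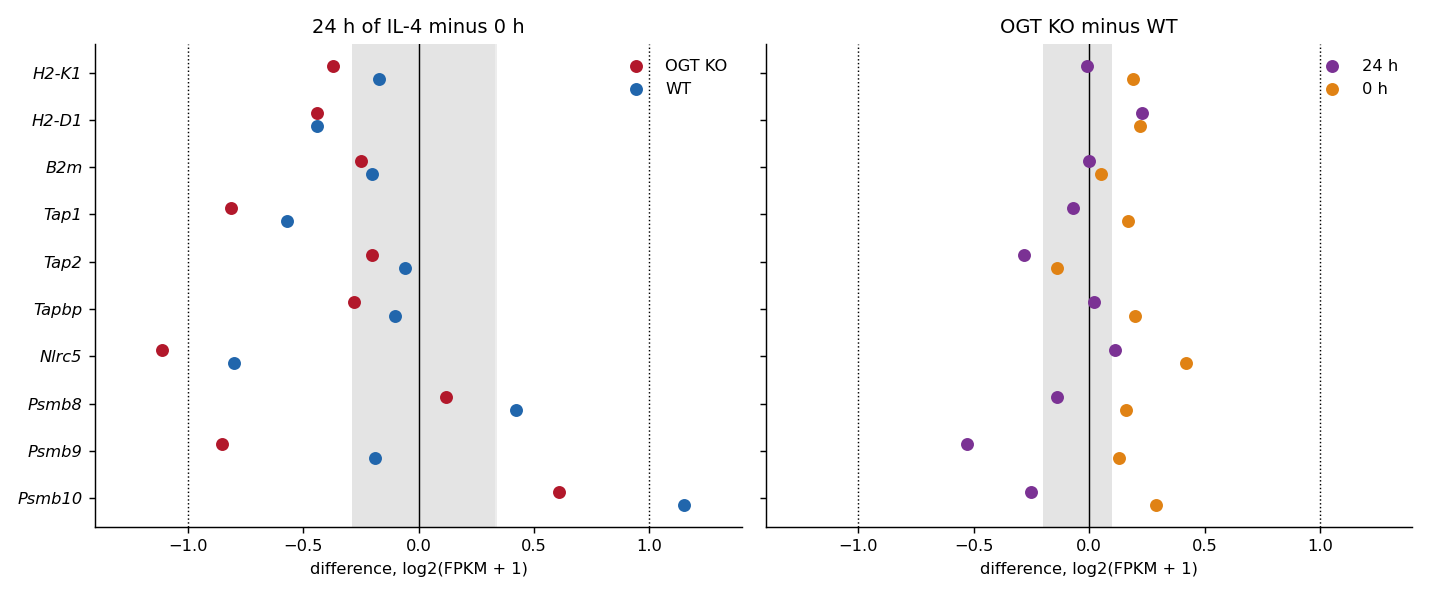
Difference in log2(FPKM + 1) for each member. Left, 24 h minus 0 h in OGT KO (red) and WT (blue); right, OGT KO minus WT at 24 h (purple) and 0 h (orange); each point compares 1 library with 1 library, dotted lines mark 2-fold, and the grey band spans the lower to the upper quartile of all kept genes, −0.29 to 0.34 on the left and −0.20 to 0.10 on the right. Nlrc5, Psmb9 and Tap1 lie furthest left in OGT KO and Nlrc5, Tap1 and H2-D1 in WT, Psmb10 lies furthest right in both, and 9 of 10 orange points lie above 0.

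The classical heavy chains were abundant and lower at 24 h. H2-K1 (ENSMUSG00000061232, chromosome 17, 33996017 to 34000347, − strand, GRCm38), which encodes the K heavy chain, was at 415 FPKM in OGT KO at 24 h, 538 in OGT KO at 0 h, 418 in WT at 24 h and 472 in WT at 0 h. Its IL-4 response was −0.37 in OGT KO and −0.17 in WT, which left 77.2% of the 0 h level in OGT KO and 88.6% in WT. The 2 libraries at 24 h were nearly equal, and OGT KO was the higher genotype at 0 h.

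H2-D1 (ENSMUSG00000073411, chromosome 17, 35262730 to 35267499, + strand), the D heavy chain, stood at 1272, 1725, 1087 and 1476 FPKM in OGT KO at 24 h, OGT KO at 0 h, WT at 24 h and WT at 0 h. The response was −0.44 in both genotypes, and OGT KO was higher than WT by 0.23 at 24 h and 0.22 at 0 h. It is the member whose response differed least between the genotypes, by 0.00. Of its 50-base stretches, 12.8% occur in another gene, mostly other H2 genes, and 9.63% of those of H2-K1 do, so reads may have been split between heavy chains.

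Summed over the 22 class I H2 genes in the table, which still depends on how shared reads were assigned because the genes differ in length, the level was 1879, 2578, 1702 and 2225 FPKM in the same order of libraries. The response of the sum was −0.46 in OGT KO and −0.39 in WT. H2-K1 and H2-D1 made up 87.6% to 89.8% of it in the 4 libraries.

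The light chain B2m (ENSMUSG00000060802, chromosome 2, 122147686 to 122153083, + strand), β2-microglobulin, is required by every classical class I molecule. It was the most abundant member, at 3074, 3663, 3082 and 3544 FPKM, and it ranked between 11 and 15 among all genes of each library. Its response was −0.25 in OGT KO and −0.20 in WT, which left 83.9% and 87.0% of the 0 h level in the 2 genotypes. OGT KO and WT were almost equal, with 3074 against 3082 FPKM at 24 h and a difference of 0.05 at 0 h.

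Peptide transport and loading genes were lower at 24 h in every case, with Tap1 the most so. Tap1 (ENSMUSG00000037321, chromosome 17, 34187553 to 34197225, + strand), the first TAP half-transporter, was at 11 FPKM in OGT KO at 24 h, 20.1 in OGT KO at 0 h, 11.7 in WT at 24 h and 17.8 in WT at 0 h. The response was −0.81 in OGT KO and −0.57 in WT, so 54.8% and 65.6% of the 0 h level was left. The 24 h libraries lay close together, and at 0 h OGT KO was the higher by 0.17.

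Tap2 (ENSMUSG00000024339, chromosome 17, 34203527 to 34216321, + strand), its partner in the same transporter, stood at 13, 15.0, 16.0 and 16.7 FPKM. Its response was −0.20 in OGT KO and −0.06 in WT. It was the only member lower in OGT KO than in WT at 0 h, by −0.14, and it was lower there at 24 h too, by −0.28. The subunits of TAP thus had unequal responses, and Tap1 was above Tap2 at 0 h and below it at 24 h in both genotypes. Tapbp (ENSMUSG00000024308, chromosome 17, 33915899 to 33929292, + strand), which encodes tapasin, was at 106, 130, 105 and 113 FPKM, with responses of −0.28 in OGT KO and −0.10 in WT. Its exons overlap those of Zbtb22 by 149 bases on the same strand, where Zbtb22 stood at 12.1, 13.4, 14 and 2.84 FPKM, well below Tapbp.

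Nlrc5 (ENSMUSG00000074151, chromosome 8, 94434356 to 94527272, + strand) was the least abundant member and the one with the lowest responses. It was at 4.82 FPKM in OGT KO at 24 h, 11.6 in OGT KO at 0 h, 4.39 in WT at 24 h and 8.39 in WT at 0 h. The response was −1.11 in OGT KO and −0.80 in WT, which left 41.7% and 52.4% of the 0 h level, and only the OGT KO difference passed 2-fold. With a pseudocount of 5 that difference was −0.75 and did not pass. Both 24 h libraries lay below both 0 h libraries, and at 0 h OGT KO exceeded WT by 0.42, the largest such difference among the members.

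Ciita, the class II counterpart of Nlrc5, went the other way, at 28.6, 9.97, 20.7 and 7.53 FPKM. Its response was 1.43 in OGT KO and 1.34 in WT, past 2-fold in both. The ratio of Nlrc5 to Ciita FPKM was therefore 0.168 in OGT KO and 0.213 in WT at 24 h, against 1.16 in OGT KO and 1.11 in WT at 0 h.

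The 3 immunoproteasome subunits did not move together. Psmb10 (ENSMUSG00000031897, chromosome 8, 105935735 to 105938444, − strand), the trypsin-like subunit β2i, was at 52.0 FPKM in OGT KO at 24 h, 33.8 in OGT KO at 0 h, 62.2 in WT at 24 h and 27.5 in WT at 0 h. Its response was 0.61 in OGT KO and 1.15 in WT, and the WT value passed 2-fold. WT had the widest range, with the highest level at 24 h and the lowest at 0 h.

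Psmb8 (ENSMUSG00000024338, chromosome 17, 34197721 to 34201454, + strand), the chymotrypsin-like subunit β5i, was at 55.1, 50.5, 61.0 and 45.3 FPKM. It showed the same order of libraries at a smaller scale, with responses of 0.12 in OGT KO and 0.42 in WT. Psmb9 (ENSMUSG00000096727, chromosome 17, 34181987 to 34187764, − strand), β1i, was instead lower at 24 h, at 8.55 FPKM in OGT KO at 24 h, 16.2 in OGT KO at 0 h, 12.8 in WT at 24 h and 14.8 in WT at 0 h. Its response was −0.85 in OGT KO and −0.19 in WT, so OGT KO kept 52.8% of the 0 h level and WT 86.6%. The OGT KO library at 24 h was the lowest of the 4.

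Tap1 and Psmb9 overlap by 212 exonic bases on opposite strands, and no source used here gives the strandedness, so reads from the overlap cannot be told apart. Taken as a sum, an alternative chosen after seeing the data, the pair had a response of −0.86 in OGT KO and −0.40 in WT, and OGT KO against WT was −0.31 at 24 h and 0.15 at 0 h. Psmb8 overlaps the antisense gene Gm20496 by 498 bases, but Gm20496 was at most 0.405 FPKM. B2m, Nlrc5, Psmb9 and Psmb10 share no stretch of 50 bases with another gene.

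The subunits that the immunoproteasome replaces were all somewhat higher at 24 h. Psmb5 (replaced by Psmb8) was at 71.2 FPKM in OGT KO at 24 h, 44.5 in OGT KO at 0 h, 70.2 in WT at 24 h and 44.0 in WT at 0 h. Psmb6 (replaced by Psmb9) was at 96.9, 68.6, 99.1 and 66.3 FPKM, and Psmb7 (replaced by Psmb10) at 23, 18.8, 20.9 and 18.4. In each case the genotypes were close to each other at both times. Of the 50-base stretches of Psmb5, 54.1% occur in another gene, chiefly Gm3375, so its level is uncertain.

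**Figure D3:**
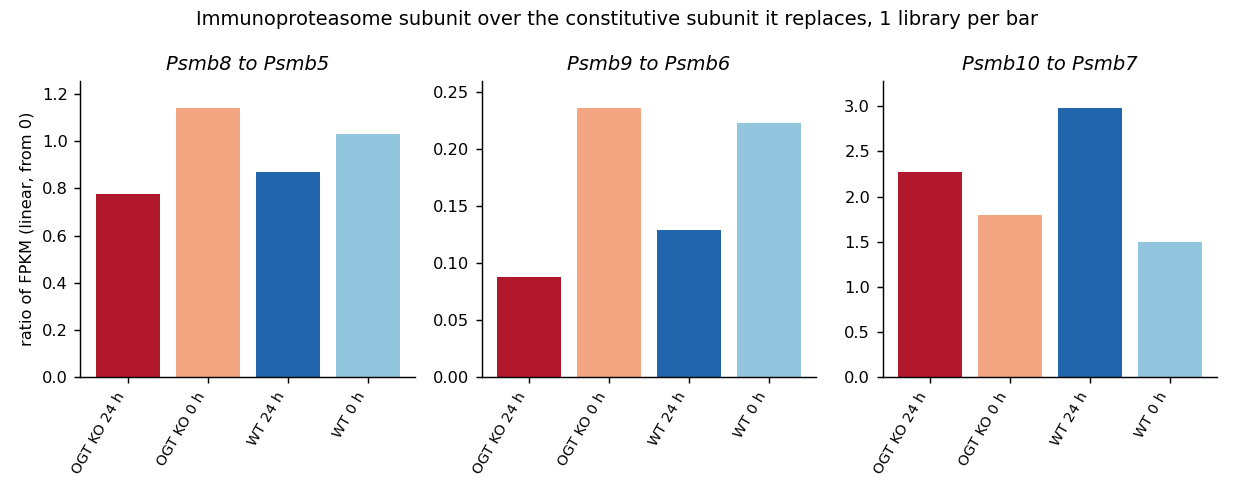
Ratio of the FPKM of each immunoproteasome subunit to that of the constitutive subunit it replaces (linear axis from 0), for OGT KO at 24 h, OGT KO at 0 h, WT at 24 h and WT at 0 h; each bar is 1 library. The ratios with Psmb8 and Psmb9 are lower at 24 h than at 0 h in both genotypes, and that with Psmb10 is higher.

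Within a library the ratio of paired subunits does not depend on scaling between libraries. Psmb8 to Psmb5 was 0.774 in OGT KO and 0.869 in WT at 24 h, against 1.14 in OGT KO and 1.03 in WT at 0 h. Psmb8 thus had the lower ratio at 24 h although its own level was higher, since Psmb5 was higher by more. Psmb9 to Psmb6 was 0.0883 in OGT KO and 0.129 in WT at 24 h, against 0.236 and 0.223 at 0 h. Psmb10 to Psmb7 ran the other way, with 2.27 in OGT KO and 2.98 in WT at 24 h, against 1.8 and 1.5 at 0 h. Over the 3 pairs summed, the ratio was 0.606 in OGT KO and 0.715 in WT at 24 h and 0.762 in OGT KO and 0.681 in WT at 0 h, so the genotypes moved in opposite directions.

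Between genotypes no member reached 2-fold at either time. At 24 h, OGT KO was above WT for 3 of 10 members, with a median of −0.04 against −0.05 for all 11302 kept genes, of which 41.4% were above 0. Among all genes, 0.832% were past 2-fold higher and 0.628% past 2-fold lower. The lowest member was Psmb9, at −0.53, followed by Tap2 at −0.28 and Psmb10 at −0.25, and the highest H2-D1 at 0.23. At 0 h, OGT KO was above WT for 9 of 10 members, with a median of 0.18 against −0.05 for all 11480 kept genes, of which 40.5% were above 0. Past 2-fold were 0.88% of all genes higher and 0.871% lower. The values ran between −0.14 for Tap2 and 0.42 for Nlrc5.

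The response in OGT KO minus that in WT was below 0 for 9 of 10 members, with a median of −0.22 against 0.00 for all 12002 genes kept, of which 50.9% were above 0. None was past 2-fold, as were 1.27% of all genes higher and 1.17% lower. It was lowest for Psmb9 at −0.65 and Psmb10 at −0.54, then Nlrc5 at −0.31, Psmb8 at −0.30 and Tap1 at −0.25. For Psmb9 the OGT KO library was the lower at 24 h (8.55 against 12.8 FPKM) and the higher at 0 h (16.2 against 14.8 FPKM). For Psmb10 it was likewise the lower at 24 h (52.0 against 62.2 FPKM) and the higher at 0 h (33.8 against 27.5 FPKM). This quantity uses the same 4 libraries as the comparisons above and is not independent of them.

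The position of 4 members inside the class II region allowed neighbours to be read side by side. Psmb9, Tap1, Psmb8 and Tap2 lie within 34.3 kb of chromosome 17 (34181987 to 34216321), with the H2-DM genes before them and H2-Ob, H2-Ab1, H2-Aa and H2-Eb1 after them. H2-DMb1, a peptide editor of class II that ends 21.8 kb before Psmb9, was at 210 FPKM in OGT KO at 24 h, 70.0 in OGT KO at 0 h, 160 in WT at 24 h and 49.5 in WT at 0 h. Its response was 1.57 in OGT KO and 1.67 in WT, and those of H2-DMa and H2-DMb2 were also past 2-fold higher. On the far side, H2-Ab1, the class II β chain, was at 713, 394, 470 and 290 FPKM, with responses of 0.85 in OGT KO and 0.69 in WT. Of the 4 members between them, Psmb9, Tap1 and Tap2 were below 0 and Psmb8 above 0 in both genotypes.

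**Figure D4:**
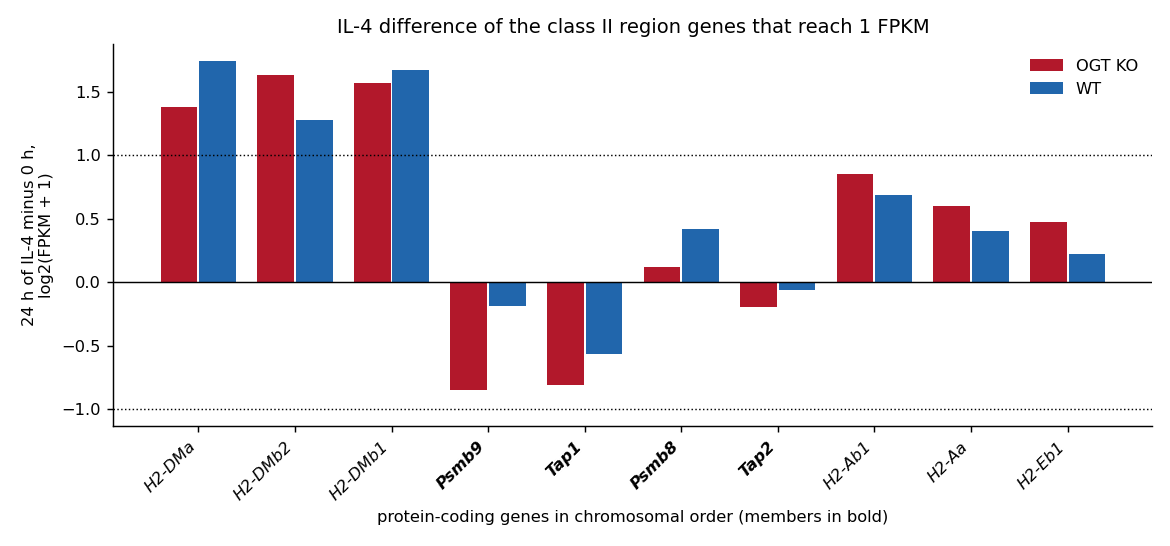
IL-4 response (24 h minus 0 h, log2 of FPKM + 1) of the protein-coding genes in chromosomal order from H2-DMa to H2-Eb1 that reach 1 FPKM, in OGT KO (red) and WT (blue); each bar compares 1 library with 1 library, dotted lines mark 2-fold, and the members are in bold. The class II genes on either side are all above 0, and Psmb9, Tap1 and Tap2 between them are below 0.

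The other class I and class I-like heavy chains were mostly lower at 24 h as well. Of 29 listed, 25 were in the table, and of 16 kept in OGT KO, 14 were below 0 and 5 past 2-fold lower, with a median of −0.63, H2-Q1 included. In WT 13 of 15 kept were below 0 and 3 past 2-fold lower, with a median of −0.42. Of all kept genes, 5.99% were past 2-fold lower in OGT KO and 6.26% in WT. H2-T24, a nonclassical heavy chain gene, was at 15.0 FPKM in OGT KO at 24 h, 51.4 in OGT KO at 0 h, 13 in WT at 24 h and 42.2 in WT at 0 h (−1.71 in OGT KO and −1.63 in WT). Cd1d1, which presents lipids to NKT cells, was at 0.715, 4.2, 1.02 and 3.81 FPKM (−1.60 and −1.25 in OGT KO and WT). H2-Q4 fell by 1.16 in OGT KO, at 21.1 against 48.3 FPKM, and was at 24.3 against 41.9 FPKM in WT (−0.76). H2-Q1 was at 2.7 FPKM in OGT KO at 0 h and listed at 0 in the other 3 libraries. It was kept in OGT KO through its 0 h library alone, so its response there could only be below 0, and it is 1 of the 5 past 2-fold. The same holds for Cd1d1 in OGT KO, at 0.715 FPKM at 24 h and 4.2 at 0 h. Fcgrt, the neonatal Fc receptor, was past 2-fold lower in WT alone, at 63.4, 80.5, 32.6 and 73.7 FPKM, the low library being WT at 24 h.

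The constitutive proteasome subunits were slightly higher at 24 h. All 14 constitutive 20S subunits, the 3 above included, were above 0 in both genotypes, with a median of 0.35 in OGT KO and 0.44 in WT, and none reached 2-fold. Of all kept genes, 52.7% were above 0 in OGT KO and 52.0% in WT. Psma4 had the largest response, at 65.5, 40.7, 64.9 and 35.9 FPKM (0.67 in OGT KO and 0.84 in WT). The assembly chaperones and proteasome activators, 9 genes, had 7 above 0 in each genotype, with medians of 0.18 in OGT KO and 0.45 in WT. The largest response was that of Psme3 in OGT KO (0.62) and of the assembly factor Psmg1 in WT (0.72). Among the same genes Psme1 and Psme2, the interferon-inducible PA28 subunits, were at −0.11 and 0.08 in OGT KO and 0.24 and 0.45 in WT. Their OGT KO minus WT differences in response, −0.36 and −0.37, lay between those of Psmb8 and Psmb10.

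Loading chaperones of the endoplasmic reticulum were likewise mostly higher, with 7 of 8 above 0 in both genotypes, against 52.7% and 52.0% of all kept genes. Calr, calreticulin, was past 2-fold higher in both, at 559 FPKM in OGT KO at 24 h, 211 in OGT KO at 0 h, 607 in WT at 24 h and 214 in WT at 0 h (1.4 and 1.5 in OGT KO and WT). Tapbpl, which encodes the tapasin-related peptide editor TAPBPR, was the exception, at 7.72, 12.1, 8.24 and 10.9 FPKM. Calreticulin and the other chaperones serve all glycoproteins, not class I alone. Of the 8 cytosolic peptidases in the table none reached 2-fold, with the largest response for Rnpep, an aminopeptidase, at −0.85 in OGT KO and −0.89 in WT. Of 8 kept genes tied to cross-presentation, Cybb alone was past 2-fold. Cybb encodes the NADPH oxidase subunit gp91phox and was at 131, 394, 99.6 and 335 FPKM (−1.58 in OGT KO and −1.74 in WT).

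Genes known to lower surface class I were read from a short list, of which 5 of 7 were kept. Susd6, part of a complex that sends class I to lysosomes, was past 2-fold lower in both genotypes, at 14.6 FPKM in OGT KO at 24 h, 34.2 in OGT KO at 0 h, 14 in WT at 24 h and 40.4 in WT at 0 h. Tmem127, of the same complex, was at 2.28 FPKM in OGT KO at 24 h, against 25.2 in OGT KO at 0 h, 21.5 in WT at 24 h and 25 in WT at 0 h. That single library was low, by −2.77 against WT at 24 h. Among 10 factors that act on class I and class II promoters with NLRC5 or CIITA, none was past 2-fold in a response. The medians were −0.06 in OGT KO and 0.14 in WT, with the largest differences for Atf1 in OGT KO (−0.43) and Creb1 in WT (0.53). Creb1, which can bind the X2 element, was past 2-fold between genotypes at 0 h, at 4.47 FPKM in OGT KO and 1.17 in WT (1.34). That WT level is close to the filter of 1 FPKM, and at 24 h the difference was 0.92. Atf1, of the same list, went the other way. It was at 10.6 FPKM in OGT KO and 14.5 in WT at 0 h (−0.42), and at 7.56 and 15.8 at 24 h (−0.98).

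The interferon-stimulated genes, the interferon-inducible GTPases and the STAT and IRF factors had lower median responses than the class I members in both genotypes. Of 20 type I interferon-stimulated genes, 20 were past 2-fold lower in OGT KO and 19 in WT, with medians of −2.37 and −2.01. Of all kept genes, 5.99% were past 2-fold lower in OGT KO and 6.26% in WT. The list was led by Ifit3, at 9.12 FPKM in OGT KO at 24 h, 309 in OGT KO at 0 h, 4.43 in WT at 24 h and 180 in WT at 0 h. In OGT KO, Mx2, Cxcl10, Isg20 and Ifi44 were kept through their 0 h library alone, so their responses could only be below 0. In WT this held for Mx2, Cxcl10 and Isg20. Many of the guanylate-binding and immunity-related GTPases are induced by interferon-γ. Of those kept, 12 of 15 were past 2-fold lower in OGT KO and 11 of 14 in WT, with medians of −1.80 and −1.24. In OGT KO, Gbp4, Gbp5, Gbp6, Gbp8 and Tgtp1 were kept through the 0 h library alone, so they could only be below 0. In WT this held for Gbp5, Gbp6, Gbp8 and Tgtp1. Iigp1 had the lowest responses of these GTPases, −3.82 in OGT KO and −2.39 in WT, at 1.13, 29.0, 3.49 and 22.6 FPKM. None of 6 listed interferon genes reached 1 FPKM in any library.

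Of the STAT and IRF factors, 6 of 12 were past 2-fold lower in OGT KO and 2 in WT. Of all kept genes, 5.99% were in OGT KO and 6.26% in WT. Irf7, an amplifier of type I interferon, was at 4.91 FPKM in OGT KO at 24 h, 54.5 in OGT KO at 0 h, 7.50 in WT at 24 h and 50.5 in WT at 0 h (−3.23 in OGT KO and −2.60 in WT). Irf1, which acts on class I and immunoproteasome promoters, was at 13.8, 31.6, 19.4 and 31.5 FPKM (−1.14 and −0.67), past 2-fold in OGT KO. Irf4, an IL-4 target, was higher at 24 h in both, at 58.4, 3.33, 46.0 and 1.97 FPKM. Socs1, an inhibitor of JAK kinases, was at 14.7, 1.02, 18.7 and 0.429 FPKM, also higher at 24 h in both. In WT Socs1 was kept through its 24 h library alone, so its response there could only be above 0. Of the 9 interferon receptors, kinases and inhibitors, Socs1 and the phosphatase gene Ptpn2 (17.1, 7.6, 16.8 and 7.5 FPKM) were past 2-fold higher in both genotypes, and none was past 2-fold lower. The median of these 9 was −0.12 in both genotypes, with 5 below 0, among them the receptor gene Ifnar2 at 29.7, 56.9, 33.3 and 57.5 FPKM (−0.91 in OGT KO and −0.77 in WT). Of 6 NF-kB factors, Relb alone passed 2-fold, in WT (−1.24, at 3.35 FPKM at 24 h and 9.3 at 0 h), and it was at −0.75 in OGT KO.

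At 0 h the interferon genes, like the class I members, were mostly higher in OGT KO than in WT. Of 20 type I interferon-stimulated genes 18 were above 0, with a median of 0.59, and 4 were past 2-fold higher: Rsad2, Xaf1, Cmpk2 and Cxcl10. Of all kept genes, 40.5% were above 0 and 0.88% past 2-fold higher in this comparison. Rsad2, viperin, was at 57.2 FPKM in OGT KO and 27.1 in WT (1.05), and Cxcl10, a T cell chemokine, at 8.52 in OGT KO and 3.11 in WT (1.21). The guanylate-binding and immunity-related GTPases had a median of 0.37, with 15 of 15 above 0 and none past 2-fold. Gbp4 among them was kept through its OGT KO library alone, so it could only be above 0. The comparison of genotypes at 0 h and the IL-4 responses use the same 0 h libraries, so a high OGT KO library at 0 h enters both.

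**Figure D5:**
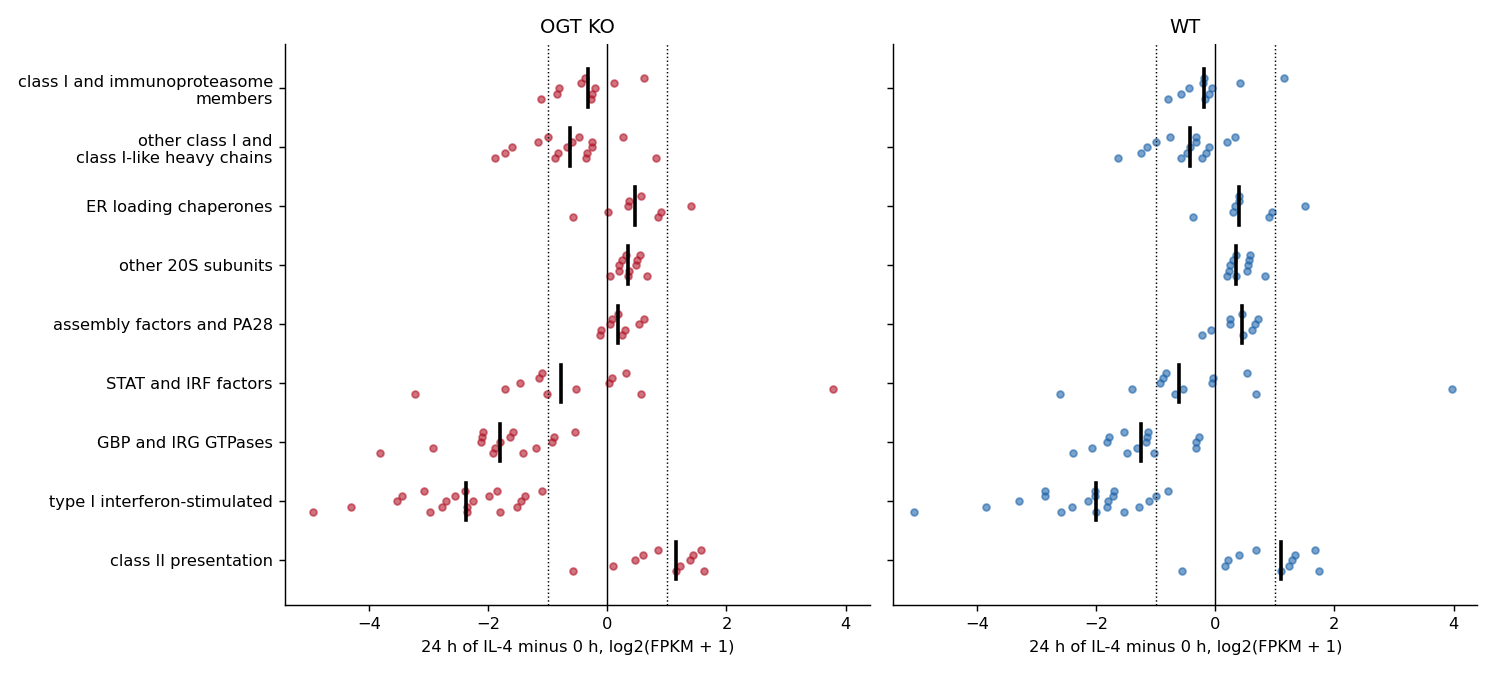
IL-4 response (24 h minus 0 h, log2 of FPKM + 1) of the kept genes of 9 lists in OGT KO (left) and WT (right); each point is a gene in 1 library pair, black bars are list medians, and dotted lines mark 2-fold. The members' medians, −0.33 in OGT KO and −0.18 in WT, lie between those of the type I interferon-stimulated genes, −2.37 and −2.01, and those of class II presentation, 1.16 and 1.11.

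Class II presentation genes were mostly higher at 24 h, with 6 of 11 kept genes past 2-fold in each genotype and medians of 1.16 in OGT KO and 1.11 in WT. Of all kept genes, 5.16% were past 2-fold higher in OGT KO and 4.77% in WT. Cd74, the invariant chain, was at 3303 FPKM in OGT KO at 24 h, 1422 in OGT KO at 0 h, 2279 in WT at 24 h and 974 in WT at 0 h. Class II genes were also the higher in OGT KO at 24 h, in 10 of 11 cases, with a median of 0.46. The class I members had a median of −0.04 there, and 41.4% of all kept genes were above 0. At 0 h both sets were mostly higher in OGT KO: class II in 10 of 11 cases (median 0.28) and the members in 9 of 10 (median 0.18). Of all kept genes, 40.5% were above 0 at 0 h.

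The members' profiles over the 4 libraries differed from one another. From the median profile of the 10, taken as values of log2(FPKM + 1) centred on each gene's mean, H2-K1 lay at a Euclidean distance of 0.064, B2m at 0.078 and Tapbp at 0.112. Psmb8 at 0.556, Nlrc5 at 0.719 and Psmb10 at 1.171 lay furthest. Among 6524 other protein-coding genes with a highest value of 5 FPKM or more, the nearest to that median profile included Bin3 (0.041), Sqor (0.043), Slc9a3r1 (0.049), Arih2 (0.051), Dck (0.053), Dcaf8 (0.053), Tbc1d15 (0.054) and Slc3a2 (0.055). Bin3, the nearest, was at 37.3 FPKM in OGT KO at 24 h, 46.8 in OGT KO at 0 h, 37.8 in WT at 24 h and 43.5 in WT at 0 h. With 4 values per gene, likeness of this kind is a description of these libraries only.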

How the data were processed

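Values are FPKM as deposited by the authors for 52550 Ensembl genes in 4 libraries, 1 per group. The table names no unit, and FPKM was read from the column totals, which differ between libraries (338704 to 353093). STAR, StringTie and GRCm38 (mm10) are named in the submitters' processing notes, with no versions. Each SMARTer library took 1 µg of RNA, per the labels' protocols. No raw counts were used. Fragments were estimated from the smallest steps in genes with 1 exon.

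Symbols and positions come from GENCODE M21 (GRCm38), which named 52403 identifiers, and promoters from RefSeq. A difference is the log2 ratio of FPKM + 1 (pseudocount 1), which understates low genes. A gene was kept if either library of a comparison (any of 4 for the last) reached 1 FPKM, and called at 2-fold. Comparisons (5) covered the IL-4 response in each genotype, OGT KO against WT at 24 h and 0 h, and the response in OGT KO minus that in WT. The procedure was tested on simulated data with planted changes well past 2-fold and counting noise only. Smaller differences and the spread between cultures were not part of that test. Python 3.11.15, pandas 2.3.3, numpy 2.4.6 and matplotlib 3.10.9 were used.

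The members, 22 pathway lists (5 of which hold the members) and 10 marker lists were chosen with earlier results of these data known. The genes named are the members, their constitutive counterparts, up to 4 list genes past 2-fold per comparison by size or else the largest difference, and the 10 nearest profiles, of which some items are not reported here. Psme1, Psme2, H2-Ab1, Irf1, Ifnar2 and Tapbpl were named for their role after their values were seen. Listed but not analysed here are H2-L, H2-Q8, H2-Q9, H2-T9, Nrdc and H2-Ea. Alternatives were pseudocounts of 5 and 0.1, rescaling by the median ratio or to the same total, a filter at 5 FPKM or none, a 1.5-fold threshold and ratios of FPKM + 1. The mirrored ISRE and the sum of Tap1 and Psmb9 were chosen after seeing the data.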

Additional observations from a re-analysis of the deposited data

Results flagged for a closer look

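For 6 members OGT KO was the lower genotype at 24 h and the higher one at 0 h. The difference between the 2 times, OGT KO minus WT at 24 h less the same at 0 h, was −0.65 for Psmb9, −0.54 for Psmb10, −0.30 for Psmb8, −0.25 for Tap1, −0.20 for H2-K1 and −0.05 for B2m on the log2 scale. With 1 library per group these differences were not tested, and B2m and H2-K1 lay within 0.01 of 0 at 24 h.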

How the results depend on the processing

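With 1 library per group there was no replicate to leave out. No paired analysis was possible because each group holds 1 library and no result comes from a test. All 10 members kept their direction in every comparison under the total rescaling. The filters and the 1.5-fold threshold leave each value as it is, so they cannot change a direction. A pseudocount cannot change the sign of a comparison of 1 library with 1 library. It could change that of the difference of responses, which kept its sign for every member under both pseudocounts. Nlrc5 was not kept between genotypes at 24 h with a filter of 5 FPKM. Under the median ratio, 3 values next to 0 changed sign: at 24 h between genotypes H2-K1 became 0.05 and B2m 0.06, and the difference in response of H2-D1 became −0.01. Rescaling moved the all-gene median by at most 0.064. With a pseudocount of 5, 0 members were past 2-fold lower in OGT KO, where Nlrc5 was at −0.75. At 1.5-fold, 1 member was higher (Psmb10) and 3 lower (Nlrc5, Psmb9 and Tap1) in OGT KO, 1 lower in WT (Nlrc5), and 1 lower in the difference of responses (Psmb9). The ratio of Psmb9 to Psmb6 in OGT KO at 24 h was 0.0976 from FPKM + 1. Counts over all genes depended on the settings: between genotypes at 24 h, 94 genes higher and 71 lower became 23 and 16 with a pseudocount of 5, 208 and 180 with 0.1, 55 and 38 at 5 FPKM, and 329 and 280 at 1.5-fold.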
